A study of Mus musculus with 12 samples.

Results

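The 10 genes followed here mark resting Müller glia and carry out their support functions in the retina: Glul, Slc1a3, Aqp4, Kcnj10, Car14, Clu, Dkk3, Abca8a, Sox9 and Hes1. They were chosen by name, as 10 of the 25655 genes in the deposited tables, and all 10 were detected in every library, with 279 to 79753 counts. Whole retinae of C57BL/6J mice aged 8 to 10 weeks were collected 2 days after optic nerve crush (ONC), a lesion of the axons of retinal ganglion cells (RGCs), and bulk RNA was sequenced. Each injured eye received a single intravitreal injection of PBS, of fluvastatin, which blocks the mevalonate pathway of cholesterol synthesis, of matrix-bound nanovesicles (MBV), which are vesicles isolated from extracellular matrix, or of both agents together. All groups of the study carried the crush, so the PBS group is injured retina given vehicle and not healthy retina, and the study used both sexes. There were 3 libraries of each of PBS, fluvastatin and MBV, with 21349516 to 30992040 counts on genes per library, and the libraries given both agents were not analysed here.

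Müller glia span the whole thickness of the retina. They clear glutamate and potassium released by neurons, move water, buffer pH, and turn glutamate into glutamine that neurons reuse. After injury they can lower these support functions and raise intermediate filament and cytokine genes, a state known as gliosis. Retinal astrocytes also use several of the same genes, among them Slc1a3, Aqp4 and Sox9, and in bulk RNA a smaller number of cells and less RNA per cell cannot be told apart.

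The levels of the 10 genes in whole retina were ranked, which cannot show whether they mark Müller glia. Per kilobase of exon (RPKM), Glul was the most abundant in PBS retina at 591 ± 92.4 (SD, n = 3), followed by Clu at 132 ± 12.3, Dkk3 at 113 ± 5.72, Abca8a at 47.5 ± 1.69, Aqp4 at 25.2 ± 0.533 and Kcnj10 at 19.2 ± 0.956. Slc1a3, at 15.4 ± 0.499, and Car14, at 14.9 ± 1.14, were neighbours in this order that differed by less than their spread. Sox9 stood at 11.4 ± 0.858 and Hes1, the least abundant, at 6.03 ± 0.294. The level of Slc1a3 rests on an exon length of 14595 bases summed over all its isoforms, which lowers its RPKM. Of the 10 genes, 6 kept their place in the order in all groups, while Kcnj10 stood above Aqp4 and Sox9 above Car14 after either agent. Kcnj10 and Aqp4 then differed by less than their spread. Sox9 stood at 10.7 ± 1.23 with fluvastatin and 11.9 ± 2.52 with MBV, and Car14 at 8.53 ± 1.91 and 8.58 ± 3.11, so that their spreads overlapped.

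Compared to PBS, 7 of the 10 genes fell after fluvastatin and 5 fell after MBV, and none rose after either agent. Hes1, Dkk3, Car14 and Aqp4 fell after both. Kcnj10 and Sox9 did not pass the test after either. Gene counts were compared by edgeR's quasi-likelihood test across all genes with a count, and a gene was called at a Benjamini-Hochberg adjusted p (FDR) under 0.05 with no minimum fold. With fluvastatin all 10 log2 fold changes lay below 0, with a median of -0.55, beside -0.01 over all 18818 genes tested. Of all genes tested, 10.2% were called lower and 9.36% higher in that comparison. With MBV, 8 of 10 lay below 0, with a median of -0.41 beside 0.01 over 18897 genes, of which 14.1% were called lower and 12% higher. Both comparisons use the same 3 PBS libraries, so they are not separate evidence of a direction.

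**Figure D1:**
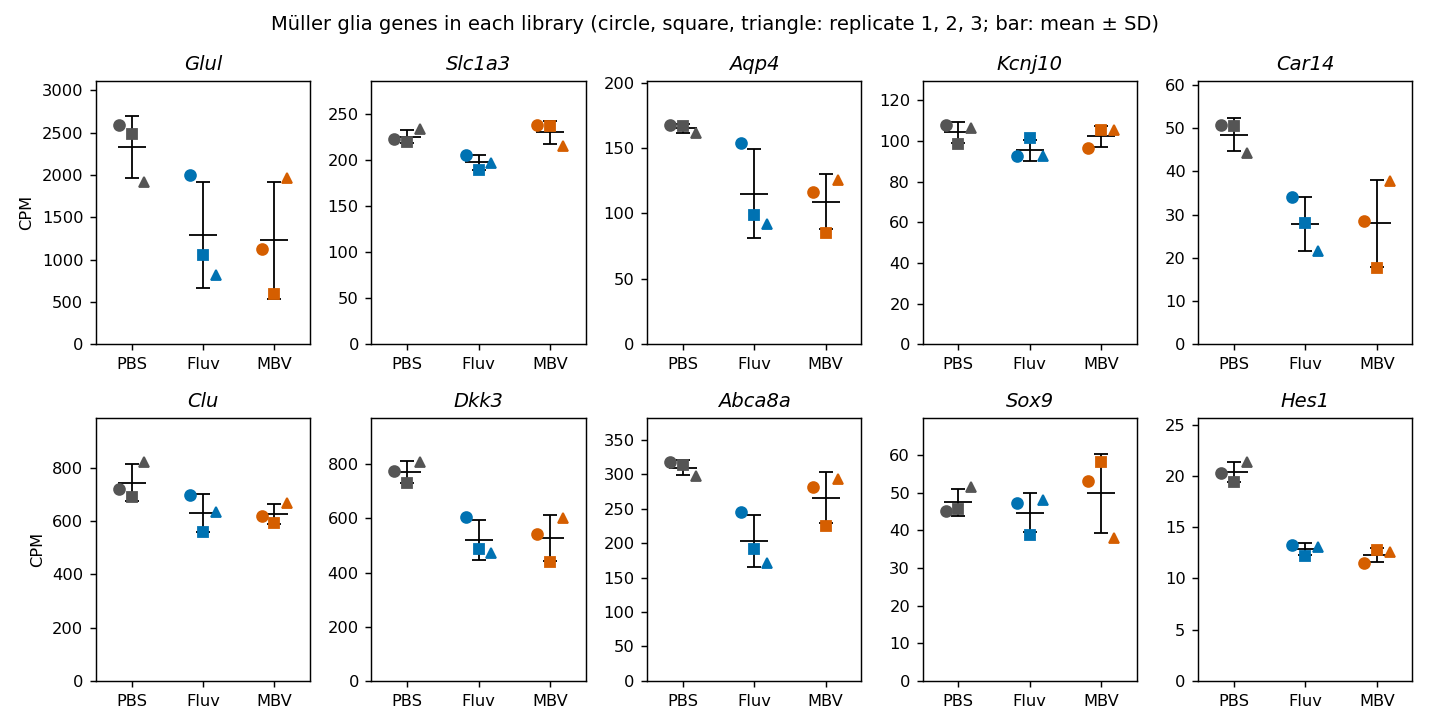
Level of each of the 10 genes in every library, as CPM (counts scaled to the TMM-adjusted total of the library) on axes that start at 0; circles, squares and triangles are replicates 1, 2 and 3, and bars give the mean ± SD of 3 libraries. Hes1 and Dkk3 are lower in all 6 treated libraries than in all 3 PBS libraries, whereas Kcnj10 and Sox9 overlap between groups, and Glul is spread widely within both treated groups.

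The count of genes that fell depended on single libraries. It was 4 without PBS replicate 1 and 4 without fluvastatin replicate 2 in the fluvastatin comparison. In the MBV comparison it was 3 without PBS replicate 1 and 3 without MBV replicate 1, and without MBV replicate 3 it was 7 lower with 1 higher. The calls over all genes moved as well. With fluvastatin they were 3687 with all libraries, 1726 without PBS replicate 1 and 2113 without fluvastatin replicate 2. With MBV they were 4937 with all libraries, 2711 without PBS replicate 1, 3417 without MBV replicate 1 and 5664 without MBV replicate 3. Per the labels, the library numbers run from 1 to 6 in 2 sets, and PBS lies in the set other than that of fluvastatin and MBV, so treatment and set cannot be told apart in either comparison with PBS. The study speaks of biological replicates, and whether a library holds RNA of a single animal or of several is not given in the sources used here, so the p-values measure only the spread between these libraries.

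**Figure D2:**
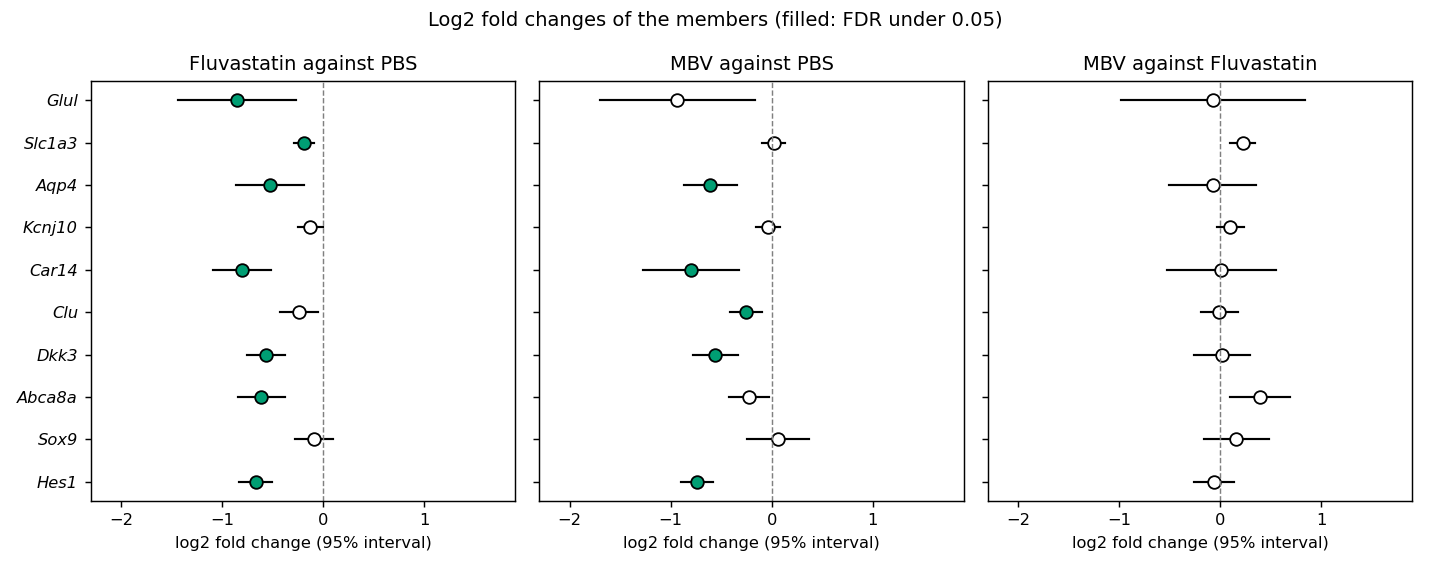
Log2 fold change of each gene in the 3 comparisons, with 95% intervals (n = 3 libraries a group); filled points passed an FDR of 0.05. Against PBS the filled points all lie below 0, and between MBV and fluvastatin no point is filled.

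Glul encodes glutamine synthetase, which turns glutamate into glutamine. It lies on chromosome 1 from 153775690 to 153785469, plus strand, in GRCm39, where Teddm2 overlaps it on the opposite strand. Among the 10 genes, Car14 and Abca8a had the highest correlation with Glul across the 9 libraries once group means were removed (values given further on). The 250 bases before the start of each of these 3 genes are therefore printed here, from RefSeq (build GRCm38.p6), written 5′ to 3′ along the strand of the gene. Capitals mark the letters TGGGAA, bound by the Notch effector RBPJ, or CACNAG, the N-box read by Hes factors, on either strand.
Glul, chr1:153899679-153899928, plus strand: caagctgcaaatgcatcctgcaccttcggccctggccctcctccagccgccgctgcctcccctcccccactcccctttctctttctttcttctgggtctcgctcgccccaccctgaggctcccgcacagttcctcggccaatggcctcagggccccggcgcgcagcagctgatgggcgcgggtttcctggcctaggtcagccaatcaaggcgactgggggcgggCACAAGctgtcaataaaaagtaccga
Car14, chr3:95904686-95904935, minus strand: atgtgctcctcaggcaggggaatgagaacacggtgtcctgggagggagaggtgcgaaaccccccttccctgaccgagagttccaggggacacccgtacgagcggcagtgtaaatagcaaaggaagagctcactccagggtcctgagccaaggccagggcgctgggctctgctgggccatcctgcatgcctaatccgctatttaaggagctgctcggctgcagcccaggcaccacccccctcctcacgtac
Abca8a, chr11:110095938-110096187, minus strand: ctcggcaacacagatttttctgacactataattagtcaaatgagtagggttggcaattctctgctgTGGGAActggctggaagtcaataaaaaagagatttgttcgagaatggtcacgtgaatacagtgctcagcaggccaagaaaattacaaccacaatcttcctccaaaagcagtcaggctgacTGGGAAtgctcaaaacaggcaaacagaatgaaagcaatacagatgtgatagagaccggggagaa

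The Glul sequence held 1 N-box, 26 bases before the start, and Abca8a held 2 runs of the RBPJ letters, at 184 and 64 bases before the start. Car14 held neither. Of 32851 promoters of the same length, 36.7% held an N-box and 21.6% the RBPJ letters, so these matches are common and describe the letters only. Sequences were found for 5 of the 10 genes, the others being Kcnj10, with neither motif, and Slc1a3, with 1 N-box. The letters AACAAT (SOX), found in 9.42% of all promoters, and TCACNCCAC (SREBP), found in 1.05%, were in none of the 5. TTCNNNGAA (STAT), found in 7.02%, was in Slc1a3 alone.

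Glul was measured at 2592, 2489 and 1915 CPM in the PBS libraries, at 1997, 1059 and 819 CPM after fluvastatin, and at 1120, 598 and 1965 CPM after MBV. In each treated group a single library, replicate 1 of fluvastatin and replicate 3 of MBV, stayed within the PBS range, and the others lay below it. The log2 fold change was -0.85 ± 0.26 (SE) with fluvastatin (edgeR FDR = 0.0448) and -0.94 ± 0.34 with MBV (edgeR FDR = 0.0727). Glul therefore passed the test after fluvastatin only, at a larger fitted change after MBV, and the difference between the agents was -0.07 with an interval from -0.98 to 0.84. The call after fluvastatin was lost without PBS replicate 1 (FDR = 0.135), PBS replicate 2 (0.104), fluvastatin replicate 2 (0.175) or fluvastatin replicate 3 (0.111). It was also lost by DESeq2 (0.134), in 1 edgeR fit of all 9 libraries (0.148) and with at least 10 counts in 2 libraries (0.0600). Without MBV replicate 3, Glul fell by 1.45 on the log2 scale (edgeR FDR = 0.000318).

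Slc1a3 encodes GLAST, the glutamate transporter that brings glutamate into the cell (chromosome 15, 8663608 to 8740248, minus strand; Gm37310 overlaps it on the same strand, so shared reads are uncertain). It stood at 223, 219 and 233 CPM with PBS, at 205, 189 and 197 CPM with fluvastatin, and at 238, 236 and 215 CPM with MBV. The fluvastatin libraries lay below all PBS libraries, and the MBV libraries overlapped them. The fall after fluvastatin was small, -0.19 ± 0.05 on the log2 scale or 12.4% lower (edgeR FDR = 0.0150), and it was lost without PBS replicate 1 (0.0627) or fluvastatin replicate 2 (0.0693). With MBV the value was 0.02 (edgeR FDR = 0.798), with an interval from -0.09 to 0.13.

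The other genes of the glutamate and glutamine cycle did not share a direction. Of 13 measured, 2 rose and 3 fell with fluvastatin, and 3 rose and 1 fell with MBV. Slc1a1 and Slc1a7, both glutamate transporters, rose: Slc1a1 by 0.48 and 0.42 and Slc1a7 by 0.25 and 0.26 on the log2 scale, after fluvastatin and MBV in turn. The median of the list was 0.03 with fluvastatin and 0.09 with MBV.

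Aqp4 encodes the water channel of glial endfeet (chromosome 18, 15522553 to 15544039, minus strand). It stood at 168, 167 and 161 CPM with PBS, at 154, 99.1 and 92.0 CPM with fluvastatin, and at 117, 85.2 and 125 CPM with MBV. All treated libraries lay below all PBS libraries, with fluvastatin replicate 1 the nearest to them. Aqp4 fell by 0.61 ± 0.12 on the log2 scale with MBV (edgeR FDR = 0.00570) and by 0.52 ± 0.15 with fluvastatin (edgeR FDR = 0.0360). The fluvastatin call was lost without any of the 3 PBS libraries (FDR = 0.102, 0.0810 and 0.0584 without replicates 1, 2 and 3), without fluvastatin replicate 2 (0.154) or 3 (0.113), by DESeq2 (0.112), and in 1 edgeR fit of all 9 libraries (0.0576).

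Kcnj10 encodes the potassium channel Kir4.1, which works at the same endfeet (chromosome 1, 172168777 to 172201652, plus strand). Its level was 108, 98.3 and 106 CPM with PBS, 92.6, 101 and 92.4 CPM with fluvastatin, and 96.4, 105 and 105 CPM with MBV. The 3 groups overlapped, and the log2 fold changes were -0.13 (edgeR FDR = 0.138) and -0.04 (edgeR FDR = 0.645), with intervals from -0.25 to -0.005 and from -0.16 to 0.08. The fitted falls of Aqp4 lay outside both intervals of Kcnj10, but they have intervals of their own. With fluvastatin that of Aqp4, from -0.86 to -0.19, overlapped the interval of Kcnj10. With MBV that of Aqp4, from -0.87 to -0.34, did not.

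Car14 encodes carbonic anhydrase 14, an enzyme at the cell surface that helps to buffer pH (chromosome 3, 95805080 to 95812003, minus strand; Aph1a overlaps it on the opposite strand). It stood at 50.7, 50.6 and 44.2 CPM with PBS, at 33.9, 28.0 and 21.5 CPM with fluvastatin, and at 28.4, 17.6 and 37.9 CPM with MBV. None of the treated libraries reached the PBS range. Car14 fell by 0.80 ± 0.13 with fluvastatin (edgeR FDR = 0.00299), a level 42.7% lower, and by 0.80 ± 0.21 with MBV (edgeR FDR = 0.0222). The call after MBV was lost without PBS replicate 1 (0.0753), PBS replicate 2 (0.0704) or MBV replicate 1 (0.0703). Whether the counting used strand is not stated in the sources used here, so reads shared by Car14 and Aph1a, or by Glul and Teddm2, cannot be told apart.

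Among 14 partner genes for potassium, water and pH, 3 rose and 2 fell with fluvastatin, and 2 rose and 3 fell with MBV. Slc4a4, a sodium bicarbonate cotransporter, fell by 0.72 with fluvastatin (edgeR FDR = 0.00244) and by 0.98 with MBV (edgeR FDR = 0.000998). Atp1b2, a sodium pump subunit, rose by 0.27 on the log2 scale with fluvastatin (edgeR FDR = 0.0131), and the water channel Aqp1 fell by 0.48 with MBV (edgeR FDR = 0.00582). The medians of the list were -0.02 and -0.07.

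Clu encodes clusterin, a secreted chaperone (chromosome 14, 66205932 to 66218996, plus strand). It stood at 719, 693 and 824 CPM with PBS, at 700, 559 and 635 CPM with fluvastatin, and at 620, 594 and 667 CPM with MBV. The MBV libraries lay below the PBS libraries, and fluvastatin replicate 1 lay among them. Clu fell by 0.26 ± 0.07 with MBV (edgeR FDR = 0.0245) and had a log2 fold change of -0.24 ± 0.08 with fluvastatin (edgeR FDR = 0.0706), which passed by DESeq2 (0.0237) and without fluvastatin replicate 1 (edgeR FDR = 0.00701). The MBV call was lost without PBS replicate 1 (0.0576), PBS replicate 3 (0.0600), MBV replicate 1 (0.0843) or MBV replicate 2 (0.0741), and in 1 edgeR fit of all 9 libraries (0.0510).

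Dkk3 encodes a secreted protein of the Dickkopf family (chromosome 7, 111715224 to 111758264, minus strand). It was measured at 774, 732 and 810 CPM with PBS, at 606, 486 and 472 CPM with fluvastatin, and at 544, 438 and 602 CPM with MBV. Every treated library lay below every PBS library. The fall was alike in size after both agents, -0.57 ± 0.09 (edgeR FDR = 0.00216) and -0.56 ± 0.10 (edgeR FDR = 0.00426), and the difference between the agents was 0.02 with an interval from -0.26 to 0.29. Dkk3 was called in all 12 alternative settings of each comparison.

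Abca8a encodes a lipid transporter of the ABC family (chromosome 11, 109916460 to 109986804, minus strand). It stood at 319, 314 and 298 CPM with PBS, at 245, 192 and 172 CPM with fluvastatin, and at 282, 225 and 293 CPM with MBV. All treated libraries lay below the PBS libraries, although MBV replicate 3 nearly reached them. Abca8a fell by 0.61 ± 0.10 with fluvastatin (edgeR FDR = 0.00355), and in all 12 alternatives. With MBV its value was -0.23 ± 0.09 (edgeR FDR = 0.0909), which passed without MBV replicate 3 (0.0117) and by DESeq2 (0.0495).

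Sox9 is a transcription factor of Müller glia and astrocytes (chromosome 11, 112673050 to 112678586, plus strand). Its level was 45.1, 45.7 and 51.6 CPM with PBS, 47.3, 38.8 and 48.0 CPM with fluvastatin, and 53.2, 58.2 and 38.0 CPM with MBV. The groups overlapped, and MBV replicates 2 and 3 were the highest and the lowest of all 9 libraries. The log2 fold changes were -0.09 (edgeR FDR = 0.516, interval from -0.28 to 0.10) and 0.06 (edgeR FDR = 0.765, interval from -0.24 to 0.36). Without MBV replicate 3, Sox9 rose by 0.22 with MBV (edgeR FDR = 0.0299). In a list of 3 relatives of Sox9, Sox10 alone passed, higher with fluvastatin by 0.83 (edgeR FDR = 0.0346). Its level was low, at 0.72 to 0.97 CPM with PBS and 1.36 to 1.57 CPM with fluvastatin. Sox8 was read in the list of Notch genes and glial transcription factors below, and is named here after its values were seen. It fell by 0.47 with MBV (edgeR FDR = 0.00445) and did not pass with fluvastatin (-0.13, edgeR FDR = 0.165).

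Hes1 is a transcriptional repressor that acts downstream of Notch receptors (chromosome 16, 29883202 to 29886614, plus strand). It was measured at 20.3, 19.4 and 21.4 CPM with PBS, at 13.3, 12.2 and 13.1 CPM with fluvastatin, and at 11.5, 12.7 and 12.6 CPM with MBV. The 6 treated libraries lay close to each other and well below PBS. Hes1 fell by 0.67 ± 0.07 with fluvastatin (edgeR FDR = 0.000763) and by 0.74 ± 0.07 with MBV (edgeR FDR = 0.000531), the smallest FDR of the 10 genes in both comparisons, and it was called in all 12 alternatives of each.

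Among 17 other genes of the Notch pathway and glial transcription factors, 8 fell with fluvastatin and 6 fell with MBV, and none rose. The medians were -0.19 and -0.17. Id3, an inhibitor of basic helix-loop-helix factors, fell by 1.38 with fluvastatin (edgeR FDR = 0.00267) and by 1.43 with MBV (edgeR FDR = 0.000469). Its relative Id2 fell by 0.77 with fluvastatin (edgeR FDR = 0.00459) and by 0.93 with MBV (edgeR FDR = 0.000657). Hes5, a second Hes repressor, fell by 0.58 (edgeR FDR = 0.0279) and by 0.84 (edgeR FDR = 0.00288), in the same order. The receptor Notch2 fell by 0.44 with fluvastatin (edgeR FDR = 0.00180) and by 0.21 with MBV (edgeR FDR = 0.0103).

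A further 13 genes of resting Müller glia were read as a list beside the 10. Of these, 7 fell with fluvastatin and none rose, and 7 fell and 1 rose with MBV, with medians of -0.29 and -0.33. Rlbp1, which encodes the retinoid carrier CRALBP, had the smallest FDR of the list in both comparisons, tied with Prdx6 after fluvastatin. It stood at 216, 224 and 215 CPM with PBS, at 172, 184 and 179 CPM with fluvastatin, and at 167, 170 and 165 CPM with MBV, with little spread within groups. It fell by 0.29 (edgeR FDR = 0.00218) and by 0.39 (edgeR FDR = 0.000560). Prdx6, a peroxidase, fell by 0.65 with fluvastatin (edgeR FDR = 0.00218) and by 0.70 with MBV (edgeR FDR = 0.00571). Car2, a carbonic anhydrase of the cytoplasm, fell by 0.25 with fluvastatin (edgeR FDR = 0.00342) and by 0.37 with MBV (edgeR FDR = 0.00112).

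The 10 genes did not vary together within groups. After the mean of each group was removed, 4 of them followed Glul across the 9 libraries, with Pearson's r of 0.972 for Car14, 0.940 for Abca8a, 0.922 for Aqp4 and 0.896 for Dkk3 (Spearman's rho 0.950, 0.917, 0.917 and 0.767). Without the 2 libraries farthest from the median of Glul, these r were 0.942, 0.971, 0.943 and 0.772. The other members had r of 0.439 (Clu), -0.0329 (Hes1), -0.119 (Kcnj10), -0.331 (Slc1a3) and -0.628 (Sox9), and that of Sox9 was -0.0218 without those 2 libraries. These values are a description with no test, and all genes of a library share its depth and normalisation. Of 10203 genes with a mean of at least 10 CPM, 4.61% had an r with Glul above 0.85. Over the 13 further genes of resting Müller glia, r ran from -0.553 for Rlbp1 to 0.991 for Col9a1, which is named here after its values were seen.

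**Figure D3:**
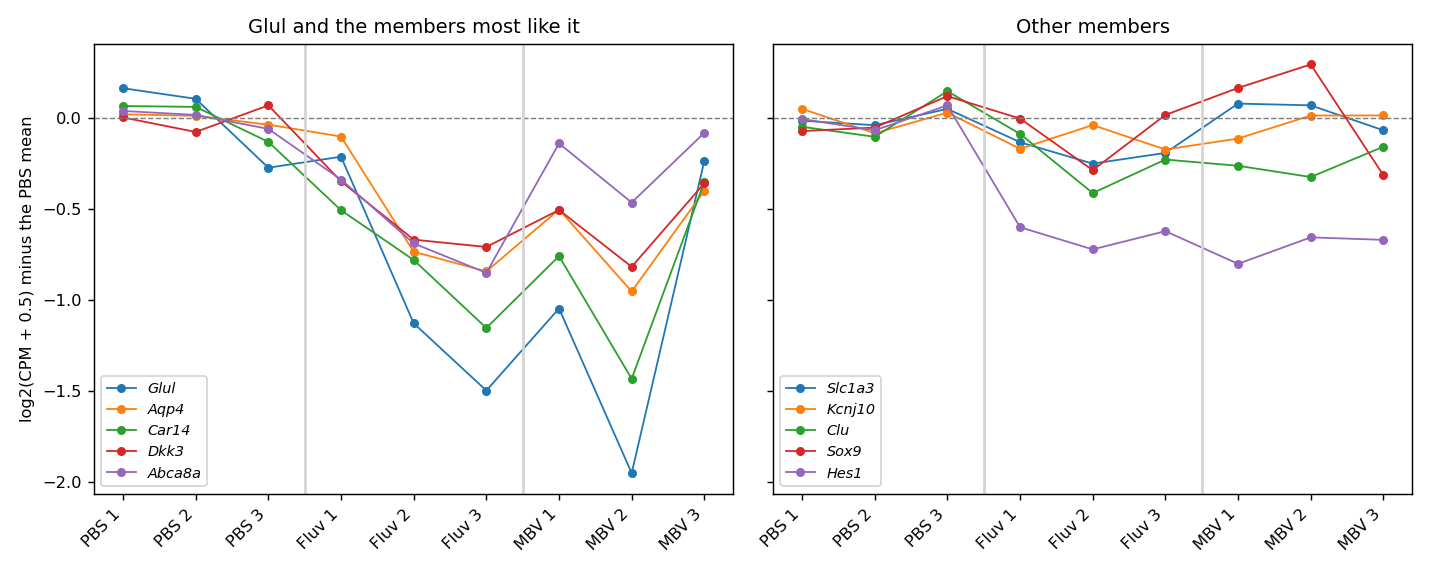
Log2(CPM + 0.5) of each gene in each library minus its PBS mean; lines join the values of a gene and stand for no order of libraries. On the left, Glul and the 4 other members with the highest r are nearest to PBS in fluvastatin replicate 1 and MBV replicate 3. On the right, Hes1 lies low in all 6 treated libraries and Kcnj10 stays near 0.

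Thus fluvastatin replicate 1 and MBV replicate 3 held Glul, Aqp4, Car14, Dkk3 and Abca8a at the highest levels of their group, whereas Hes1, at 13.3 and 12.6 CPM in them, lay well below PBS. MBV replicate 3 was also the library with the highest summed level of 9 monocyte and neutrophil genes, at 123 CPM beside 19.99 and 8.13 CPM in the other MBV libraries and 12.7 to 26.8 CPM with PBS, while fluvastatin replicate 1 had the lowest, at 7.50 CPM. The part of these cells in the levels of the 10 genes was not tested. The 10 genes together took 0.446% to 0.498% of all counts with PBS, 0.256% to 0.406% with fluvastatin and 0.243% to 0.401% with MBV. The mean of log2(CPM + 0.5) over the 10 genes was 7.61 ± 0.02 with PBS, 7.12 ± 0.20 with fluvastatin and 7.18 ± 0.18 with MBV. The 5 other genes whose pattern was most like the mean of the 10 across the 9 libraries, among 10194 compared, were Pygb, D16Ertd472e, Slc7a2, Pdyn and Pphln1 (Pearson's r from 0.982 to 0.990).

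Genes of reactive glia were measured beside them. Of 17, only Nes and Lif passed, both higher after either agent, and the medians were 0.39 with fluvastatin and 0.65 with MBV. PBS replicate 3 stood apart from the other PBS libraries. The mean of log2(CPM + 0.5) over the list was 4.43, 4.24 and 5.32 in PBS replicates 1, 2 and 3, a spread that limits which genes could pass. Nes encodes the intermediate filament nestin and stood at 10.7, 7.50 and 13.0 CPM with PBS, at 17.8, 50.0 and 68.9 CPM with fluvastatin, and at 52.8, 76.2 and 17.3 CPM with MBV. It rose by 2.13 ± 0.39 (edgeR FDR = 0.00513) and 2.22 ± 0.45 (edgeR FDR = 0.00713), and was lowest within each treated group in the library where Glul was highest. Lif, a cytokine of the interleukin 6 family, rose by 1.61 (edgeR FDR = 0.0370) and 2.31 (edgeR FDR = 0.0300). Its level was low, at 1.43, 0.96 and 2.20 CPM with PBS, 3.13, 2.28 and 8.65 CPM with fluvastatin, and 8.04, 13.4 and 1.37 CPM with MBV. MBV replicate 3 lay within the PBS range of Lif, and fluvastatin replicate 2 lay just above it.

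Vim and Gfap, the intermediate filaments vimentin and GFAP, and Cntf, which encodes ciliary neurotrophic factor, are named here after their values were seen. Vim stood at 155, 144 and 178 CPM with PBS, at 142, 205 and 276 CPM with fluvastatin, and at 240, 322 and 134 CPM with MBV. Its log2 fold changes of 0.39 (edgeR FDR = 0.175) and 0.54 (edgeR FDR = 0.145) did not pass, and neither did those of Gfap, 0.80 (edgeR FDR = 0.0622) and 0.33 (edgeR FDR = 0.473). Within both treated groups the order of Vim was the reverse of that of Glul. With group means removed, r with Glul ran from -0.975 for Vim to 0.820 for Cntf over the 17 reactive genes, 15 of them below 0. It lay below -0.85 for 2 of the 17, Vim and Nes (-0.952), as it did for 3.29% of the 10203 genes, and it was -0.787 for Gfap. Without the 2 libraries farthest from the median of Glul, it was -0.953 for Vim, -0.933 for Nes and -0.691 for Gfap.

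**Figure D4:**
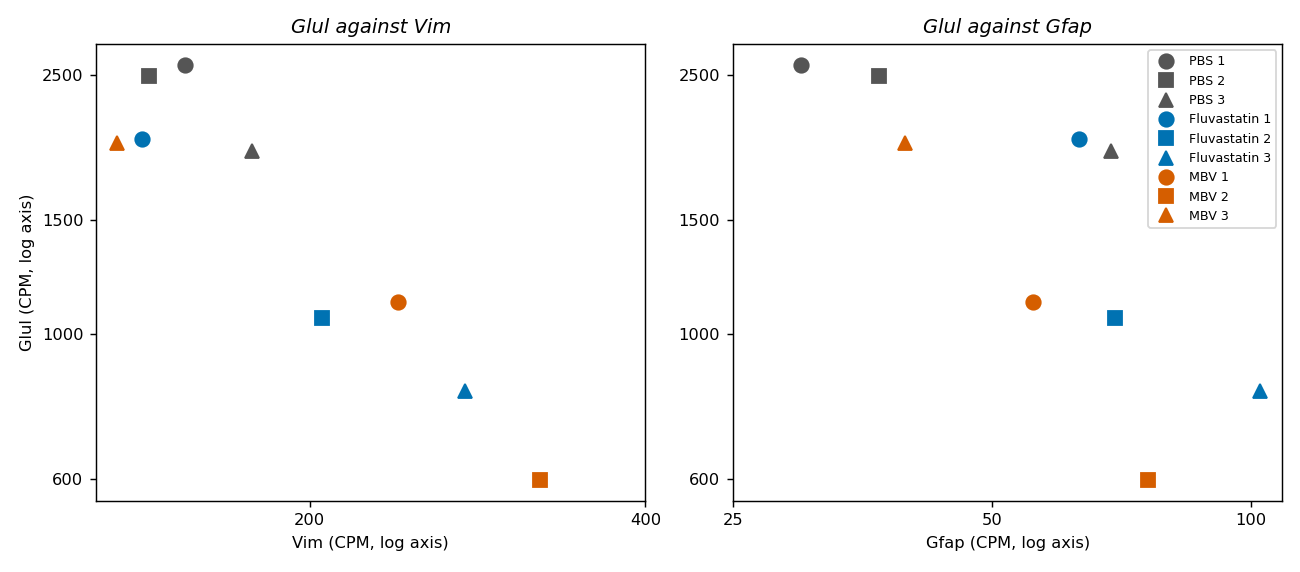
Glul against Vim (left) and Gfap (right) in CPM on log axes, 1 point for each of the 9 libraries, coloured by group and shaped by replicate. Fluvastatin replicate 1 and MBV replicate 3 lie beside the PBS libraries with high Glul and low Vim, and MBV replicate 2 has the lowest Glul (598 CPM) and the highest Vim (322 CPM).

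Between MBV and fluvastatin, whose libraries lie in the same set of library numbers, none of the 10 genes passed. Over all genes this comparison called 11 of 18721, or 0.0588%, in either direction. Without adjustment 2 of the 10 had a p under 0.05 by edgeR, and DESeq2 called 0. Slc1a3 was higher with MBV by 0.22 with an interval from 0.09 to 0.35 (edgeR FDR = 0.262), without overlap between the groups, and Abca8a by 0.39 with an interval from 0.10 to 0.69 (edgeR FDR = 0.369). Without MBV replicate 3, Slc1a3 passed at 0.27 (edgeR FDR = 0.0448). The intervals were widest for Glul, from -0.98 to 0.84, and for Car14, from -0.53 to 0.55. With 3 libraries a group, differences inside those intervals were thus not excluded, and the smallest difference that could be detected was not computed.

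Markers of other cells were read in the same libraries, since a change in the mix of cells would move bulk levels. Of 8 rod genes, 2 fell with fluvastatin and 6 fell with MBV, Sag in both, with the summed level at 47672 to 51775 CPM with PBS, 42527 to 45767 CPM with fluvastatin and 33323 to 46021 CPM with MBV. Of 12 genes of pigment epithelium and melanocytes, the same 5 fell after both agents (Pmel and Dct among them), 3 rose with fluvastatin and 1 rose with MBV. The summed levels of 158 to 187, 106 to 162 and 80.4 to 169 CPM thus join genes that moved in opposite directions. Of 10 lens genes, 9 rose with MBV, from a summed level of 2.32 to 7.21 CPM with PBS to 66.6 to 186 CPM. None of the 6 astrocyte genes passed in either comparison, at summed levels of 80.4 to 129, 123 to 162 and 94.9 to 132 CPM. No gene of these lists was at 0 in every library. Their part in the levels of the 10 genes was not tested.

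**Figure D5:**
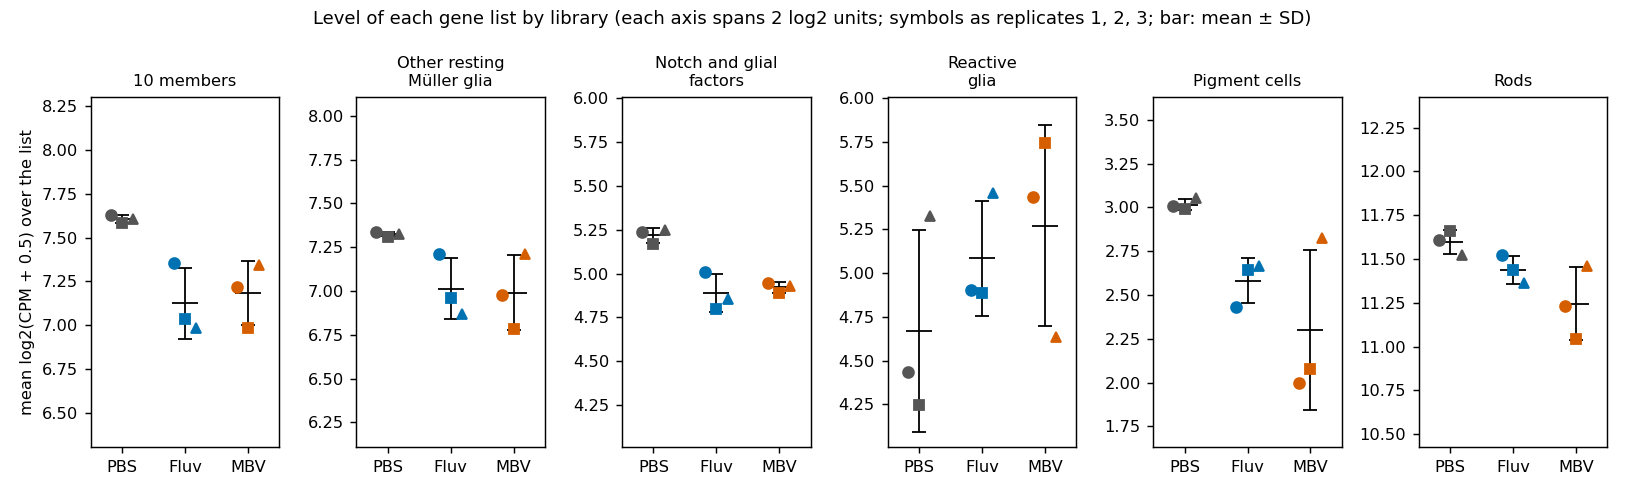
Mean of log2(CPM + 0.5) over each gene list in every library, on axes that each span 2 log2 units; bars give the mean ± SD of 3 libraries. The list of 10 genes is lower in all 6 treated libraries than in PBS, at 7.12 ± 0.20 and 7.18 ± 0.18 beside 7.61 ± 0.02, and the reactive list spreads widely in every group.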

How the data were processed

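Total RNA of injured retinae from 12 samples in 4 groups was sequenced by the authors as paired reads, aligned to GRCm39 and counted per gene with CLC Genomics Workbench. The values used are raw read counts per gene as deposited by the authors, without normalisation. The strand setting of the counting is not given in the sources used here. Counts were read for 9 libraries in 3 groups, and 6 count columns in the table of the combined treatment, whose headers name no library, were left out. Of 7 planned comparisons, 4 were therefore not run: the combined treatment against PBS, both main effects and the contrast of library sets. The deposited tables also hold the authors' own comparisons (group means, fold changes, p-values and FDRs), which were not used.

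The library totals were 21349516 to 30992040 counts, and the lowest count of any of the 10 genes was 279. Genes with a count in at least 1 library of a comparison were fitted in edgeR 4.0.16 (R 4.3.3) with TMM scaling and the quasi-likelihood test, 2 groups at a time, and p-values were adjusted over all genes tested (Benjamini-Hochberg). The fit was run on simulated counts with known changes, drawn with a coefficient of variation (SD over mean) of 8% for all genes. That of Glul was 48.2% with fluvastatin and 56.2% with MBV, so the simulation does not bear on genes that variable. SE and 95% intervals come from the same fit. CPM used TMM library sizes over the 9 libraries, and a pseudocount of 0.5 was added before log2. RPKM used the summed exon length of each gene in GENCODE release M39 (GRCm39), and its start and end are those in the deposited tables. The alternatives were DESeq2 1.42.0, median-ratio factors, library size alone, at least 10 counts in 2 libraries, a replicate block, 1 fit of all 9 libraries, and leaving out each library in turn.

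The 10 genes and the 17 lists of 166 other genes were chosen with earlier results of these data known. All 10 were named, at most 3 genes with the smallest FDR from each other list and comparison, and the 5 genes whose pattern was most like the mean of the 10. Some genes of the lists are not reported here by name. Exceptions are marked as chosen after their values were seen. Promoter letters were read from RefSeq (GRCm38.p6) by symbol and only the 250 bases before the start were searched.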

Additional observations from a re-analysis of the deposited data

How the results depend on the processing

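Under 12 alternatives for each comparison, Hes1 and Dkk3 stayed called lower after both agents, Car14 and Abca8a after fluvastatin and Aqp4 after MBV. Leaving out each library in turn, the number of the 10 genes called ran from 4 to 8 with fluvastatin against PBS, from 3 to 8 with MBV against PBS and from 0 to 1 between MBV and fluvastatin. The other settings gave 5 to 8, 4 to 6 and 0. Small values changed sign when a library was left out. Against PBS, Sox9 ran from -0.14 to 0.0065 with fluvastatin, and with MBV Slc1a3 ran from -0.0079 to 0.065, Kcnj10 from -0.073 to 0.0028 and Sox9 from -0.061 to 0.22. Between MBV and fluvastatin Glul ran from -0.59 to 0.39, Aqp4 from -0.22 to 0.19, Car14 from -0.26 to 0.25, Clu from -0.091 to 0.071 and Dkk3 from -0.087 to 0.14. With library size alone Clu was 0.018 and with the replicate block Car14 was -0.033 in that comparison. The cause was not tested.

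Same-numbered libraries did not deviate together (r from -0.43 to 0.19), so the replicate block joins libraries that share only a number, and not every library correlated best with its own number. With the block, 8 of the 10 genes were called with fluvastatin, Clu being the addition (edgeR FDR = 0.0236), 5 with MBV and 0 between the agents. Over all genes it called 3727, 3876 and 0, beside 3687, 4937 and 11 without it. Over all genes, the calls without PBS replicate 1 were 1726 (fluvastatin) and 2711 (MBV), and without fluvastatin replicate 2 they were 2113. Between MBV and fluvastatin DESeq2 called 126, the 9-library fit 27, the count filter 5, and leaving out a library gave 0 to 197. With library size alone the MBV comparison gave 2589 higher and 2101 lower genes, beside 2271 and 2666. With 3 libraries a group, differences of Glul between the agents inside its interval of -0.98 to 0.84 were not excluded.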

Other observations

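Other cell types of the retina were read by their marker lists, beside 19.6% of all genes called in either direction with fluvastatin and 26.1% with MBV. Of 9 RGC genes, Sncg and Thy1 rose with fluvastatin and none passed with MBV. Of 8 amacrine and horizontal cell genes, Slc6a9, a glycine transporter, rose after both agents, and Tfap2a rose with fluvastatin. Of 8 bipolar cell genes, 1 fell with fluvastatin and 2 fell with MBV, Isl1 among the latter. Of 6 cone genes, the channel subunit Cnga3 rose after both and Gnat2 fell with MBV.

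Of 8 microglia genes, 7 did not pass after either agent. Among 9 genes of monocytes and neutrophils, H2-Aa, Lyz2 and S100a8 fell with fluvastatin. S100a8 was near the floor, at 0.20 to 0.46 CPM with PBS and 0 to 0.085 CPM with fluvastatin. H2-Aa was also low, at 1.36 to 2.20 CPM and 0.45 to 1.02 CPM in turn. None of the 9 passed with MBV, where the summed level was 123 CPM in replicate 3 alone and at most 19.99 CPM in the others. Of 7 genes of endothelium and pericytes, Cdh5 rose with MBV. No gene of any of these lists passed between MBV and fluvastatin.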
